A study of Homo sapiens with 44 samples.

Results

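The genes described are 10 proteases of the lysosome, the cathepsins CTSA, CTSB, CTSC, CTSD, CTSK, CTSL, CTSO, CTSS and CTSZ and the asparaginyl endopeptidase legumain (LGMN). They were taken by symbol from a table of 40663 gene symbols, and all 10 were found there. Their transcripts were measured by bulk RNA-seq in Ccd-18Co, an established fibroblast line from human colon, in 44 libraries that fall into 11 groups of 4. One group was left unstimulated. The others received TNF, IL-1β, IFNα, IFNγ, TGF-β1, IL-13, OSM (oncostatin M), IL-17A, IL-22 or IL-6, each at 10 ng/ml except IL-1β at 0.1 ng/ml, for 24 h. The IL-1β dose is that of the labels and methods, and a figure legend of the study gives a lower one. Cells of all groups, the unstimulated included, were first starved of serum for 72 h. A single line stands for the colon fibroblast here, and the labels do not say whether the 4 libraries of a group came from separate cultures, so that the p-values given measure only the spread between these libraries.

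Cathepsins are made as inactive precursors, carried to the lysosome by mannose 6-phosphate receptors and activated at acidic pH, where they degrade proteins that arrive by endocytosis and autophagy. Most of the family are papain-like cysteine proteases (CTSB, CTSC, CTSK, CTSL, CTSO, CTSS and CTSZ), while CTSD is an aspartic protease and CTSA a serine carboxypeptidase. Legumain cuts after asparagine and matures other cathepsins. In antigen-presenting cells CTSS and CTSL trim the invariant chain from MHC class II molecules, and in connective tissue CTSK, CTSL, CTSB and CTSS can also be secreted and cleave collagen and elastin.

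Promoter sequence was at hand for 5 of the 10 genes (CTSA, CTSC, CTSD, CTSL and CTSZ), as RefSeq windows on GRCh38.p14 from 250 bases before to 50 bases after the start of the reference (MANE Select) transcript. The gene positions given further on span all annotated transcripts of a gene and can begin well before that start. Each window was searched on both strands for the GAS motif (TTCNNNGAA), to which STAT dimers bind, for the core of the interferon-stimulated response element (GAAANNGAAA), for the E-box (CACGTG) and for the CLEAR core (TCACGTGA), the E-box with its flanks that TFEB recognises in lysosomal genes. The windows of 3 genes are printed, because CTSC and CTSL are, of these 5, the genes called after any cytokine and CTSA is the one that holds the lysosomal motif. Capitals in the CTSA window mark an E-box and, nearer to the start, the CLEAR core with the other E-box inside it.
CTSA, chr20:45891085-45891384, plus strand: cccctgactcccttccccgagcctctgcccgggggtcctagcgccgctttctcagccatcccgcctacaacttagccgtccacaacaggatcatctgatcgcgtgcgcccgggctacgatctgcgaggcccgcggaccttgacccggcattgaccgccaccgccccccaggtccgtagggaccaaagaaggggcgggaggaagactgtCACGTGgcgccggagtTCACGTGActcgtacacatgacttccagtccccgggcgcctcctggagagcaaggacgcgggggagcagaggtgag
CTSC, chr11:88337687-88337986, minus strand: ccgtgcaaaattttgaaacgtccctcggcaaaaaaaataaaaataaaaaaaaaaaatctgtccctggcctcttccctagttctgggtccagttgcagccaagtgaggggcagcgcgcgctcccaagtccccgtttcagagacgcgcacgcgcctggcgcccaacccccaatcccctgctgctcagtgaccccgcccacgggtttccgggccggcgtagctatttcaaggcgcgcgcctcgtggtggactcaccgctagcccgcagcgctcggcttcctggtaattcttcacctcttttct
CTSL, chr9:87725869-87726168, plus strand: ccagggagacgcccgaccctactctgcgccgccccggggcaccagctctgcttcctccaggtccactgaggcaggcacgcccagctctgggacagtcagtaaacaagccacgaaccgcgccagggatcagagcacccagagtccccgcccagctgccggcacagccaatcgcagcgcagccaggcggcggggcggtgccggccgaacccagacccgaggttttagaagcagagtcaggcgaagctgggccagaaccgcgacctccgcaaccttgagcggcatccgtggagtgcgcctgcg
The CTSA window held E-boxes that begin 42 and 25 bases before the start, and the CTSD window held 1 that begins 47 bases before it. The windows of CTSC, CTSL and CTSZ held no match to any of these motifs. Among all 35116 promoter windows of this length, 7.26% held an E-box, 0.98% the CLEAR core, 7.66% the GAS motif and 3.57% the core of the interferon-stimulated response element. The E-box count includes every CLEAR core.

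The libraries held between 742173 and 2213424 estimated counts, with a median of 1480883. Levels are given as CPM (counts scaled to a common library size), scaled to normalized library sizes, and changes as log2 fold changes with their standard error (SE) from edgeR's quasi-likelihood test, which was fitted to 9513 genes in all 44 libraries. A gene was called changed at a Benjamini-Hochberg adjusted p under 0.05. Such levels are shares of a library, so that a change in a transcript cannot be told apart from an opposite change in the rest, and in bulk RNA fewer cells with a transcript cannot be told apart from less of it per cell. Of the fibroblast markers (collagens, DCN, LUM and others), 10 of 10 were measured, with a summed level of 17280 to 52500 CPM per library. This sum ran from 29260 to 41240 CPM in unstimulated cells, from 17280 to 34400 CPM after IFNγ and from 21340 to 27690 CPM after TNF, and its part in the results was not tested. Macrophage and monocyte markers, which matter here because such cells are rich in CTSS, summed to at most 5.46 CPM in any library, with ITGAM and TYROBP at 0 in all of them. After IFNγ, where CTSS was highest, their sum was at most 3.01 CPM. Endothelial and lymphocyte markers stayed at or under 2.92 CPM in sum, and epithelial markers, of which VIL1 alone passed 3 counts in any library, at or under 26.6 CPM.

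In unstimulated fibroblasts the cysteine exopeptidase CTSC and the collagenolytic CTSK led the set. Levels per kilobase of the reference transcript correct for length, and not for GC content or for reads shared with overlapping genes. On this scale CTSC stood at 179 ± 19.0 CPM per kb (mean ± SD, n = 4 here and below), CTSK at 104 ± 19.5, CTSL at 49.9 ± 10.6 and CTSB at 47.0 ± 10.2. CTSO, CTSA and LGMN formed a lower tier at 14.7 ± 3.61, 14.1 ± 5.57 and 12.5 ± 9.08 CPM per kb. CTSZ at 1.94 ± 1.19, CTSD at 1.61 ± 0.603 and CTSS at 0.491 ± 0.290 CPM per kb were close to the limit of detection. The order changed with the cytokine. CTSK was first and CTSC second after TNF (184 ± 20.7 against 117 ± 13.0 CPM per kb), CTSL moved up to second after OSM (201 ± 16.7) and IFNα (153 ± 18.8), and LGMN came next after CTSK with IFNα (119 ± 55.5).

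The summed level of the 10 transcripts was 865 ± 122 CPM in unstimulated cells. It was highest after IFNγ (2004 ± 279 CPM), OSM (1809 ± 101) and IFNα (1467 ± 173), and lowest after IL-13 (671 ± 59.2). All 4 libraries of each of the first 3 groups exceeded the highest unstimulated library (1037 CPM), and all 4 IL-13 libraries, at most 708 CPM, lay under the lowest (755 CPM). Abundant transcripts weigh most in this sum, so it is no measure of the set as a whole. CTSC alone stood at 335 ± 35.4 CPM unstimulated, 967 ± 120 after IFNγ, 748 ± 8.89 after OSM, 400 ± 19.1 after IFNα and 183 ± 13.8 after IL-13. Precision differed widely between the genes. The median coefficient of variation within groups was 10.6% for CTSC, between 17.0% and 18.7% for CTSL, CTSB and CTSK, 27.9% for CTSO, 42.0% for CTSA, 59.6% for CTSS and 60.1% for LGMN. The 4 unstimulated libraries held 10, 19, 45 and 94 counts of LGMN, and edgeR's biological coefficient of variation for it, which leaves counting error out, was 60.8% against 12.4% for CTSC.

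**Figure D1:**
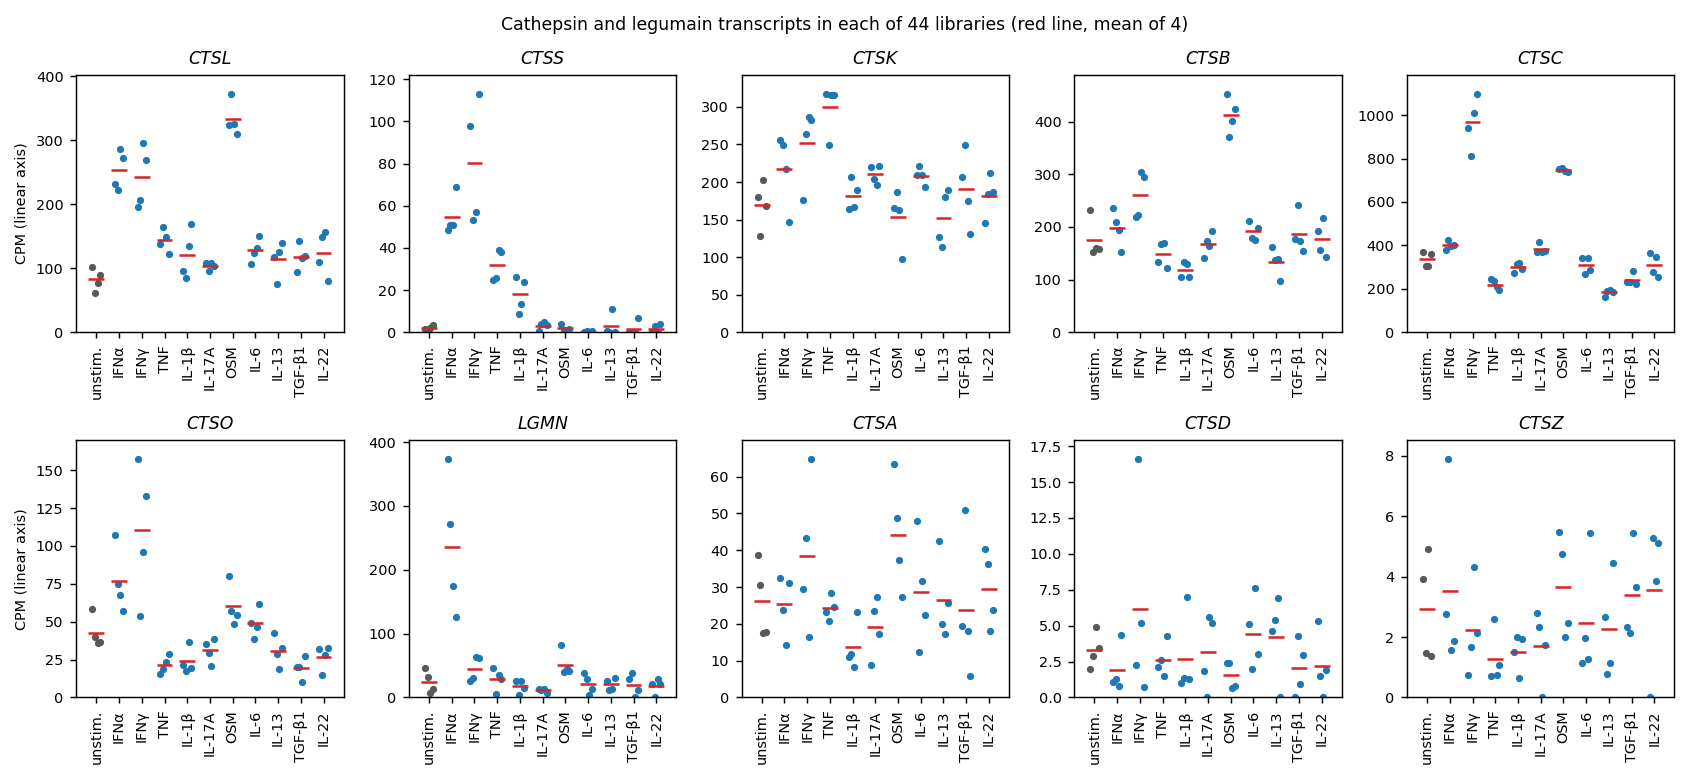
Level of each of the 10 transcripts in CPM (vertical axis, linear from 0, a scale of its own for each gene) in the 4 libraries of each of the 11 groups (horizontal axis). Points are libraries, grey for unstimulated and blue for stimulated cells, and the red line is the mean of 4; CTSS stands out after IFNα, IFNγ, TNF and IL-1β, LGMN after IFNα, and CTSB, CTSC and CTSL after OSM.

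The first question was which of these proteases each cytokine changed against unstimulated cells. Of the 10, 8 passed the filter on low counts and CTSD and CTSZ did not, which leaves 80 comparisons with the 10 cytokines. edgeR called 15 rises and 6 falls. CTSS, with 1 to 5 counts per unstimulated library, passed the filter through the groups where it is high. Its 4 rises, all of them past both limits used below, are therefore a description and add no support to these counts. IFNγ raised 5 of the 8 (CTSS, CTSC, CTSL, CTSO and CTSB), while it raised 5.52% of all tested genes and changed 10.6% in either direction. TNF changed 5 of 8, beside 11.5% of all genes. It raised CTSS, CTSK and CTSL (5.37% of all genes rose) and lowered CTSC and CTSO (6.09% fell). IFNα raised 3 (CTSS, LGMN and CTSL), where 4.99% of all genes rose and 9.85% changed. OSM also raised 3 (CTSL, CTSB and CTSC), where 1.42% rose and 3.96% changed. IL-1β changed 2 of 8 beside 7.38% of all genes, with CTSS up (3.46% of all genes rose) and CTSB down (3.92% fell). TGF-β1 lowered 2 (CTSC and CTSO), where 3.08% of all genes fell and 5.69% changed, and IL-13 lowered 1 (CTSC), where 2.40% fell and 3.93% changed. With the study's added limit of an absolute log2 fold change above 1.5, 9 of the 21 calls remained. These were 3 after IFNγ (CTSS, CTSC and CTSL, beside 3.53% of all genes), 3 after IFNα (beside 3.98%), and CTSS after TNF (beside 4.19%), CTSS after IL-1β (beside 2.78%) and CTSL after OSM (beside 1.30%). None was left after TGF-β1 or IL-13, where 1.70% and 1.47% of all genes were. The medians of the 8 log2 fold changes were 1.10 after IFNγ, 0.89 after OSM, 0.60 after IFNα, 0.04 after TNF, -0.12 after TGF-β1, -0.24 after IL-13 and -0.33 after IL-1β, while those of all tested genes lay between -0.05 and 0.00.

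No protease was called after IL-17A, IL-22 or IL-6, where edgeR called 1.52%, 0% and 0.0105% of all genes. At an unadjusted p under 0.05 the counts were 0, 2 (CTSL and CTSO) and 1 (CTSL), beside 1195, 1037 and 233 of all 9513 genes. DESeq2 called 0 in each, beside 233, 96 and 1 of all genes. CTSL after IL-6 was the nearest of these, with 107, 124, 131 and 151 CPM against 61.2, 76.7, 90.2 and 102 CPM in unstimulated cells and a log2 fold change of 0.63 (95% interval 0.22 to 1.04). With 1 gene called in the whole IL-6 comparison, its adjusted p was 1. These groups therefore do not show that the 3 cytokines left the proteases as they were.

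**Figure D2:**
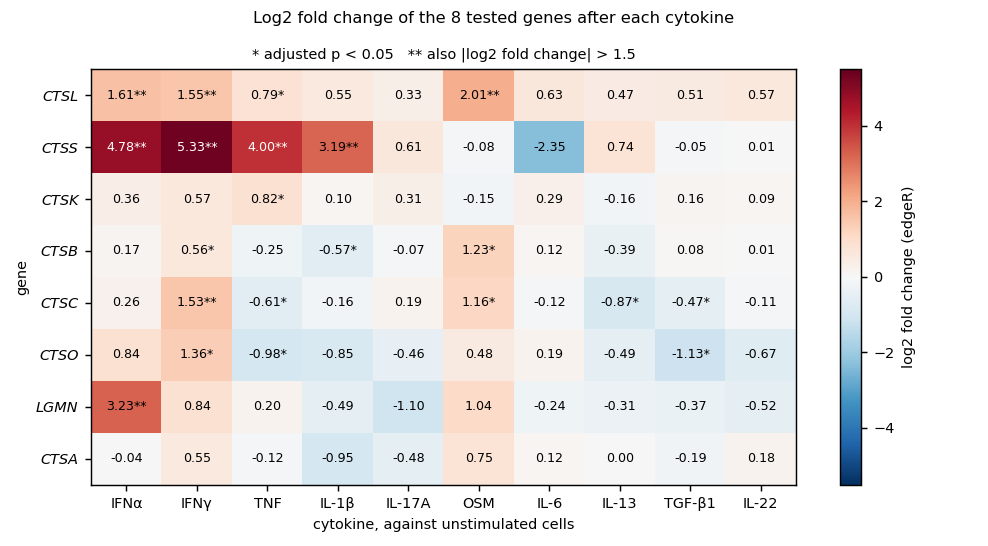
Log2 fold change (colour scale and printed value, edgeR) of the 8 tested genes (rows) after each of the 10 cytokines (columns) against unstimulated cells; 1 asterisk marks an adjusted p under 0.05 and 2 asterisks also an absolute log2 fold change above 1.5. Of the 21 marked cells, 9 carry 2 asterisks, 4 of them in the CTSS row, where the value of -2.35 after IL-6 is a fit to a group with at most 1 count per library and is no estimate of a fold.

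CTSS, an elastase and collagenase that remains active at neutral pH and the main invariant chain protease of antigen-presenting cells, went from nearly undetected to clearly present under 4 cytokines. The gene (ENSG00000163131.12) occupies chr1:150730079-150765957 on GRCh38, minus strand, with 8 exons in its reference transcript. Unstimulated libraries held 0.729, 1.47, 2.11 and 3.42 CPM, which are 1, 3, 3 and 5 counts. IFNγ libraries held 53.2, 57.2, 97.9 and 113 CPM, and IFNα libraries 48.5, 50.7, 50.8 and 69.1 CPM. After TNF the 4 values were 24.7, 25.8, 38.0 and 39.0 CPM, and after IL-1β 8.62, 13.3, 24.0 and 26.2 CPM. None of these 16 libraries overlapped the unstimulated ones.

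The log2 fold changes of CTSS were 5.33 (SE 0.75) after IFNγ, 4.78 (SE 0.75) after IFNα, 4.00 (SE 0.75) after TNF and 3.19 (SE 0.75) after IL-1β, with edgeR adjusted p of 9.17e-07, 5.27e-06, 1.31e-04 and 0.00319. Because the baseline rests on 12 counts in all, the size of these folds is loosely bound. Ratios of summed counts, corrected for library size, were 43.2 for IFNγ (95% exact interval 24.5 to 84.3), 28.8 for IFNα (16.3 to 56.3), 17.1 for TNF (9.55 to 33.6) and 9.77 for IL-1β (5.40 to 19.4), where the intervals cover counting error only. For 5 of the remaining groups the interval included 1, with ratios of 1.47 after IL-17A (0.67 to 3.35), 1.86 after IL-13 (0.864 to 4.16), 1.01 after TGF-β1 (0.375 to 2.61), 1.05 after IL-22 (0.407 to 2.66) and 0.956 after OSM (0.382 to 2.37). IL-6 libraries held 2 counts in all, a ratio of 0.161 whose counting interval of 0.0175 to 0.724 lies under 1, while edgeR did not call the difference (adjusted p 1). The IL-13 and TGF-β1 values each came mostly from 1 library, with 19 of 20 counts and 9 of 9 counts.

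Neighbours in the order IFNγ, IFNα, TNF and IL-1β did not differ from each other by edgeR (adjusted p between 0.433 and 0.648), although the IFNα and TNF libraries did not overlap, whereas IL-1β lay above the next group, IL-17A, by 2.58 (SE 0.71) on the log2 scale with an adjusted p of 0.0268. CTSS and CTSK are neighbours on chromosome 1, on the same strand and 28922 bases apart with 1 long noncoding RNA gene (ENSG00000236713) between them. The same 3 groups, IFNγ, IFNα and TNF, had the highest means of both genes, in another order, but CTSK was called in TNF alone by edgeR. Across the 11 group means of log2 CPM their Pearson r was 0.66, the highest of CTSK with any of the 8 genes, as a description over groups that share the cell line and processing.

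CTSL, a potent lysosomal endopeptidase that also degrades collagen and elastin, was the member whose mean was higher than in unstimulated cells after every cytokine, although all 10 comparisons share the same 4 control libraries and only 4 were called. It lies at chr9:87724051-87731469, plus strand (ENSG00000135047.16, 8 exons). Unstimulated libraries held 61.2, 76.7, 90.2 and 102 CPM. OSM libraries held 309, 324, 326 and 373 CPM, IFNα libraries 222, 231, 273 and 286 CPM, IFNγ libraries 196, 207, 268 and 296 CPM, and TNF libraries 122, 138, 149 and 164 CPM. Every library of these 4 groups was above every unstimulated one.

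The rise of CTSL was 4.02-fold after OSM (log2 fold change 2.01, SE 0.21, adjusted p 1.62e-09), 3.05-fold after IFNα (1.61, SE 0.20, adjusted p 5.68e-08), 2.92-fold after IFNγ (1.55, SE 0.20, adjusted p 1.93e-07) and 1.73-fold after TNF (0.79, SE 0.20, adjusted p 0.0061). In the order of levels, OSM over IFNα was not called (0.40 on the log2 scale, adjusted p 0.213) though their libraries did not overlap, IFNα and IFNγ overlapped, and IFNγ exceeded TNF by 0.76 (SE 0.20, adjusted p 0.00938). Below TNF no neighbours were called. The log2 fold changes of the uncalled groups ran from 0.33 with IL-17A and 0.47 with IL-13 over 0.51 with TGF-β1, 0.55 with IL-1β and 0.57 with IL-22 to 0.63 with IL-6. The IL-1β difference passed the test without IL-1β replicate 2 (0.69, adjusted p 0.0346). CTSV and the 6 CTSL pseudogenes in the table, which resemble CTSL in sequence, held at most 6 counts and 0 counts in any library.

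CTSK, the main collagen-degrading cathepsin of bone and also made by activated fibroblasts, was raised by TNF. The gene (ENSG00000143387.14, 8 exons) is at chr1:150794880-150809577, minus strand, and overlaps the pseudogene UBE2D3P3 on the other strand. TNF libraries held 249, 316, 316 and 318 CPM and unstimulated libraries 128, 168, 181 and 203 CPM, without overlap. This is a rise of 1.76-fold (log2 fold change 0.82, SE 0.19, adjusted p 0.00286). IFNγ gave 176, 264, 283 and 287 CPM, of which the lowest lay within the unstimulated range. Its log2 fold change of 0.57 (SE 0.20) missed the threshold with an adjusted p of 0.0512, and it passed without IFNγ replicate 1 (0.74, adjusted p 0.0121), without unstimulated replicate 3 (0.69, adjusted p 0.0301) and by DESeq2 (0.61, adjusted p 0.0263). No pair of neighbours in the order of CTSK levels was called, and OSM (98.1 to 187 CPM) and IL-13 (113 to 189 CPM) stood at its lower end.

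CTSB, an endopeptidase that also trims dipeptides from the carboxyl end, responded most to OSM. It is encoded at chr8:11842524-11869533, minus strand (ENSG00000164733.23, 10 exons). OSM libraries held 371, 401, 424 and 453 CPM, against 152, 158, 160 and 233 CPM in unstimulated cells. The groups were well apart, with a 2.34-fold rise (log2 fold change 1.23, SE 0.17, adjusted p 2.76e-06), and OSM also exceeded the next group, IFNγ, by 0.66 (SE 0.17, adjusted p 0.0077).

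Smaller changes of CTSB were called after IFNγ and IL-1β. IFNγ libraries held 219, 223, 295 and 304 CPM, a pair of them under the highest unstimulated library, for a log2 fold change of 0.56 (SE 0.17, adjusted p 0.0247). IL-1β libraries held 105, 106, 130 and 133 CPM, all under the unstimulated ones, for a log2 fold change of -0.57 (SE 0.17, adjusted p 0.031). Both depend on single libraries. Unstimulated replicate 1, at 233 CPM, stood above the other 3, and without it the IL-1β value was -0.40 (adjusted p 0.223) and the IFNγ value 0.73 (adjusted p 0.00506). The IL-1β call was also lost without IL-1β replicate 1, 3 or 4 (adjusted p 0.122, 0.0528 and 0.135), and the IFNγ call without unstimulated replicate 2, 3 or 4 (0.0948, 0.0628 and 0.0753) or IFNγ replicate 3 or 4 (0.0893 and 0.0853).

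CTSC, the dipeptidyl peptidase that activates the serine proteases of granulocytes and cytotoxic lymphocytes, had the highest level per kb of the set in all groups but TNF and the smallest spread within groups, and it was called in 5 comparisons, up in 2 and down in 3. It spans chr11:88265069-88359684, minus strand (ENSG00000109861.17, 7 exons), with a long noncoding RNA gene (ENSG00000288018) on the other strand. Unstimulated libraries held 304, 305, 359 and 372 CPM. IFNγ libraries held 814, 942, 1012 and 1099 CPM, and OSM libraries 739, 742, 753 and 758 CPM. Both groups lay far above the unstimulated range, with rises of 2.88-fold (log2 fold change 1.53, SE 0.13, adjusted p 1.11e-12) and 2.23-fold (1.16, SE 0.13, adjusted p 1.22e-08). They did not overlap each other either, but their difference of 0.37 (SE 0.13) was not called (adjusted p 0.0638), and both stood above the third group, IFNα (377, 398, 402 and 424 CPM), with OSM over IFNα at 0.90 (SE 0.13, adjusted p 5.78e-07). IFNα itself was not called against unstimulated cells (0.26, SE 0.13, adjusted p 0.233), although its libraries were all higher.

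On the other side, IL-13 libraries held 163, 185, 191 and 193 CPM of CTSC, TNF libraries 192, 207, 234 and 245 CPM, and TGF-β1 libraries 222, 231, 232 and 280 CPM. All 12 values were under the lowest unstimulated library. CTSC decreased by 0.87 on the log2 scale after IL-13 (SE 0.13, adjusted p 7.67e-06) and by 0.61 after TNF (SE 0.13, adjusted p 6.51e-04), and these calls held without any single library. The decrease by 0.47 after TGF-β1 (SE 0.13, adjusted p 0.0172) was lost without unstimulated replicate 1 or 4 (adjusted p 0.0553 and 0.0709) or TGF-β1 replicate 1, 2 or 4 (0.0677, 0.0627 and 0.0585). The printed CTSC promoter window precedes a transcript that thus moved in both directions, and the motif search bears on neither.

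CTSO, a little-studied papain-like protease, moved in the same direction as CTSC under IFNγ, TNF and TGF-β1. It lies at chr4:155921580-155953912, minus strand (ENSG00000256043.5, 8 exons). Unstimulated libraries held 35.9, 36.9, 40.1 and 58.3 CPM, IFNγ libraries 54.0, 96.2, 133 and 157 CPM, TNF libraries 15.5, 18.9, 23.3 and 28.4 CPM, and TGF-β1 libraries 9.98, 20.2, 20.3 and 27.2 CPM. The TNF and TGF-β1 libraries lay below all unstimulated ones, and the lowest IFNγ library lay within their range. The log2 fold changes were 1.36 (SE 0.30, adjusted p 0.00121) after IFNγ, -0.98 (SE 0.31, adjusted p 0.0307) after TNF and -1.13 (SE 0.32, adjusted p 0.0253) after TGF-β1. IFNα (57.3, 67.5, 75.1 and 107 CPM) gave 0.84 (SE 0.30) with an adjusted p of 0.0631, which passed without unstimulated replicate 1 (1.03, adjusted p 0.0321), without IFNα replicate 4 (0.98, adjusted p 0.0427) and by DESeq2 (0.86, adjusted p 0.0445).

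The falls of CTSO rest on few counts, 11 to 53 per library after TNF and TGF-β1, and on most of the libraries. The TNF call was lost without unstimulated replicate 1 or 2 (adjusted p 0.118 and 0.0587) or TNF replicate 1, 2 or 3 (0.127, 0.0866 and 0.0658). The TGF-β1 call was lost without unstimulated replicate 1 or 2 (0.0897 and 0.0521) or TGF-β1 replicate 1, 2 or 3 (0.0632, 0.0584 and 0.143). The IL-1β value (-0.85, adjusted p 0.0921) passed without IL-1β replicate 3 (-1.13, adjusted p 0.0334). No neighbours in the order of CTSO levels were called.

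LGMN, which matures other cathepsins and cleaves antigens after asparagine, was raised by IFNα and by no other cytokine at the threshold. It is at chr14:92703807-92748679, minus strand (ENSG00000100600.15, 14 exons). IFNα libraries held 126, 174, 272 and 374 CPM, against 7.04, 13.0, 32.8 and 46.0 CPM in unstimulated cells. The groups did not overlap despite the wide spread in each. The rise was 9.39-fold (log2 fold change 3.23, SE 0.62, adjusted p 1.59e-04), and its 95% interval ran from 1.99 to 4.48 on the log2 scale. OSM was next with 39.1, 41.2, 44.0 and 81.6 CPM, and lay below IFNα by 2.19 (SE 0.59, adjusted p 0.00705). The log2 fold changes of LGMN after OSM (1.04, SE 0.60, adjusted p 0.436) and IFNγ (0.84, SE 0.61, adjusted p 0.439) did not pass. That of OSM passed when all genes with any count were kept (1.03, adjusted p 0.0416). The pseudogene LGMNP1 held 8 counts over all libraries.

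CTSA, the serine carboxypeptidase that also protects β-galactosidase and neuraminidase in the lysosome, was called after none of the 10 cytokines by edgeR, and the count at an unadjusted p under 0.05 was 1, after IL-1β. DESeq2 called 0. The gene (ENSG00000064601.21, 15 exons) is at chr20:45890144-45898949, plus strand, and NEURL2, PLTP and a long noncoding RNA gene overlap it on the other strand. Since the sources used here do not say whether strand entered the counting, reads of CTSA and these partners may not be separate. Unstimulated libraries held 17.6, 17.8, 30.6 and 38.7 CPM, IL-1β libraries 8.26, 11.1, 11.9 and 23.3 CPM, and OSM libraries 27.2, 37.4, 48.6 and 63.3 CPM. Both groups overlapped the unstimulated one. The 95% intervals of the log2 fold change, -1.88 to -0.02 for IL-1β (adjusted p 0.278) and -0.13 to 1.63 for OSM (adjusted p 0.438), leave room for changes of more than 2-fold. The CLEAR core in its printed promoter window therefore stands beside a transcript that was called after none of the cytokines.

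CTSD and CTSZ were too low to test. CTSD, the aspartic protease of the lysosome, had 0 to 20 counts per library and group means from 1.57 ± 0.960 CPM after OSM to 6.20 ± 7.19 CPM after IFNγ, the latter raised by 1 library of 16.6 CPM. CTSZ, a carboxypeptidase also called cathepsin X, had 0 to 12 counts and group means from 1.28 ± 0.886 CPM after TNF to 3.67 ± 1.70 CPM after OSM. When all genes with any count were fitted, neither was called after any cytokine. The low CTSD value is uncertain. On chr11:1752752-1764573, minus strand, CTSD (ENSG00000117984.15, 9 exons) overlaps a protein-coding gene on the same strand (ENSG00000250644) that has no symbol of its own in the annotation, and how the authors' counting divided reads between them was not tested. CTSZ (ENSG00000101160.15, 6 exons, chr20:58985686-59008238, minus strand) overlaps NELFCD on the other strand. The GC content of the reference transcript was 63.6% for CTSD, 58.2% for CTSZ and 56.8% for CTSA, the highest of the 10, and between 39.6% (CTSS) and 51.7% (CTSB) for the other genes. Its part in their low levels was not tested.

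The next question was whether cytokines that share receptor chains, signalling or a tissue response differed in the proteases when set against each other directly, without the unstimulated libraries as a common reference. Of the 8 tested genes, 2 differed between IFNγ and IFNα, where 9.39% of all genes did. CTSC was higher after IFNγ by 1.27 (SE 0.13, 95% interval 1.01 to 1.53, adjusted p 3.88e-10), and LGMN was lower by 2.39 (SE 0.59, interval -3.58 to -1.19, adjusted p 0.00556). For CTSL the difference was -0.06 with an interval of -0.46 to 0.33, which leaves out a 1.5-fold difference in either direction. For CTSS it was 0.55 with a wide interval of -0.58 to 1.69.

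OSM and IL-6, which signal through the shared receptor chain gp130 at the same dose here, differed in 3 of the 8, with 2.67% of all genes called. CTSC (1.28, SE 0.13, adjusted p 1.79e-09), CTSL (1.38, SE 0.20, adjusted p 7.61e-06) and CTSB (1.11, SE 0.17, adjusted p 2.57e-05) were all higher after OSM. Every OSM library exceeded every IL-6 library for 5 of the 8 (these 3, CTSS and LGMN), and for 4.51% of all genes. For CTSS this rests on 1 to 6 counts per library after OSM and at most 1 after IL-6, so its order is no result. CTSK was at -0.44 (SE 0.20), with every OSM library below every IL-6 library but without a call (adjusted p 0.326). LGMN differed by 1.28 (SE 0.61, adjusted p 0.378), and this was called when all genes with any count were kept (1.28, adjusted p 0.00424).

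TNF and IL-1β differed in CTSK alone, 1 of 8 beside 1.15% of all genes, although the doses were 10 and, by the labels, 0.1 ng/ml and the comparison is one of these treatments rather than of the cytokines at equal dose. CTSK was higher after TNF by 0.72 (SE 0.19, adjusted p 0.0499), with IL-1β libraries at 164, 166, 190 and 207 CPM and no overlap. The call sits at the threshold. It was lost without any 1 of the 4 IL-1β libraries (adjusted p 0.0847 to 0.153) and without TNF replicate 1, 3 or 4 (0.126, 0.126 and 0.0959), and held without TNF replicate 2 (0.82, adjusted p 0.0414). DESeq2 called CTSC as well (-0.43, adjusted p 0.0441). IL-13 and TGF-β1, a pair of cytokines tied to fibrosis, differed in 1 of 8, CTSC, beside 12.4% of all genes, so the count lies near the background. CTSC was lower after IL-13 by 0.40 (SE 0.13, adjusted p 0.0348), a call lost without any of the libraries but TGF-β1 replicate 4 (adjusted p 0.0501 to 0.162). CTSB (-0.48, adjusted p 0.0658) passed without IL-13 replicate 1 (-0.59, adjusted p 0.0444) or TGF-β1 replicate 4 (-0.56, adjusted p 0.0369). The difference in CTSS, 0.79 (SE 0.91, adjusted p 0.662), rests on the 2 high libraries already named, being -2.51 without IL-13 replicate 3 (adjusted p 0.247) and 5.30 without TGF-β1 replicate 4 (adjusted p 0.0378).

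**Figure D3:**
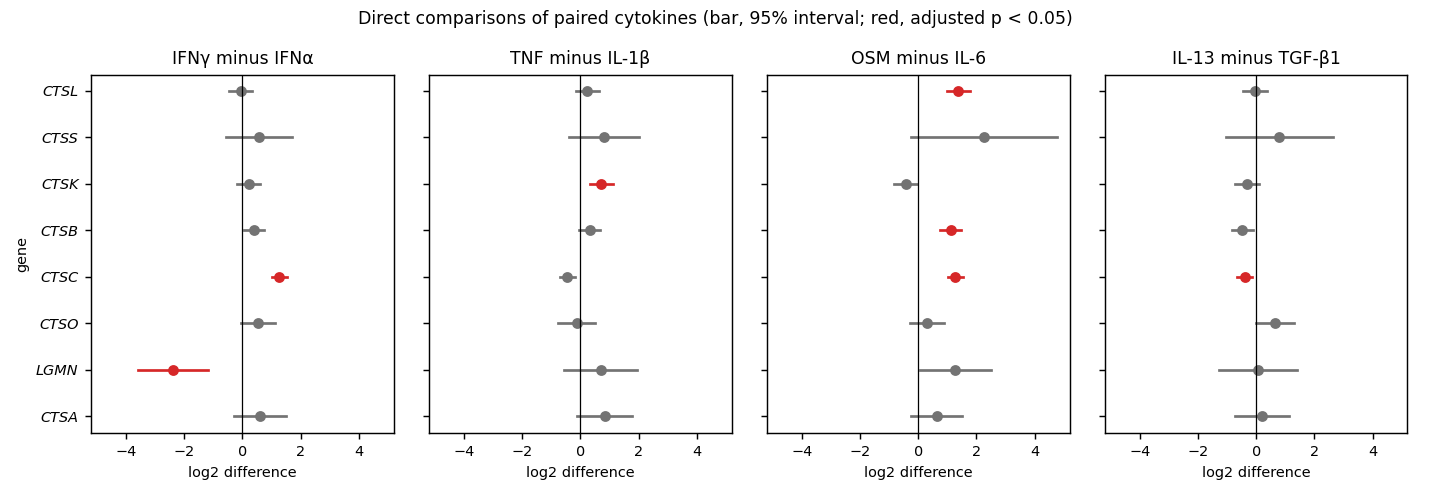
Direct comparisons of 4 pairs of cytokines for the 8 tested genes, as the log2 difference of the first minus the second cytokine (horizontal axis, edgeR) with bars for the 95% interval. Red marks an adjusted p under 0.05, which holds for CTSC and LGMN between the interferons, CTSK between TNF and IL-1β, CTSB, CTSC and CTSL between OSM and IL-6, and CTSC between IL-13 and TGF-β1.

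The 8 genes can also be set beside each other by their pattern over the 11 group means of log2 CPM, a description over points that share the cell line, processing and normalization. CTSB and CTSC (r = 0.80), CTSC and CTSO (0.80), CTSA and CTSB (0.80), CTSL and LGMN (0.77) and CTSB and CTSL (0.77) were most alike. CTSK and CTSB (-0.14) and CTSK and CTSA (-0.07) were least so, and CTSS was close to 0 with CTSB (-0.02) and CTSA (0.00). Among the 9508 genes with enough signal, those with the pattern most like CTSS were PSMA3, a proteasome subunit (r = 0.95), PANX1, a channel protein (0.95), and SMAP2 (0.94). For LGMN they were the interferon-induced DHX58 (0.95) and LY6E (0.94) and the chondroitin synthase CHSY3 (0.93). For CTSL they were AP2S1, a clathrin adaptor subunit (0.93), the SNARE protein STX17 (0.91) and MAGOH (0.91), and for CTSC the mitochondrial protease PARL (0.91), SSBP3 (0.91) and AP3D1, an adaptor subunit of the route to lysosomes (0.91).

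Of the wider lysosomal pathway, 106 genes were listed, 105 were in the table and 71 were tested. The other cathepsins (CTSE, CTSF, CTSG, CTSH, CTSV and CTSW), of which several belong to immune cells, were in the table, and 0 of 6 passed the filter. Among other lysosomal peptidases 1 of 5 tested was called, the serine carboxypeptidase SCPEP1 after IFNγ, where 10.6% of all genes were called. SCPEP1 rose from 32.5 ± 6.56 to 69.8 ± 14.7 CPM (log2 fold change 1.09, SE 0.28, adjusted p 0.00567).

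The natural inhibitors of these proteases include the cystatins and some serpins. Of 16 listed 6 were tested, and 1 was called after each of TNF, IFNα and IL-13, beside 11.5%, 9.85% and 3.93% of all genes. SERPINB8 rose after TNF (0.84, SE 0.24, adjusted p 0.0163) and IFNα (0.91, SE 0.24, adjusted p 0.00871), and SERPINB6 after IL-13 (from 75.7 ± 13.3 to 154 ± 10.7 CPM, log2 fold change 1.02, SE 0.19, adjusted p 4.36e-04).

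Of 20 tested glycosidases, sulfatases and lipid enzymes, 2 were called after TNF, 2 after IL-1β, 2 after IFNγ, 1 after TGF-β1 and 1 after OSM. The shares of all genes called were 11.5%, 7.38%, 10.6%, 5.69% and 3.96% in these comparisons, so the counts lie near the background. LIPA, the lysosomal acid lipase, fell after TNF (from 42.0 ± 8.02 to 8.97 ± 8.13 CPM, log2 fold change -2.14, SE 0.43, adjusted p 4.28e-04), IL-1β (-1.78, SE 0.42, adjusted p 0.00331) and TGF-β1 (-1.56, SE 0.43, adjusted p 0.019). ASAH1, acid ceramidase, fell after IL-1β (-1.25, SE 0.35, adjusted p 0.0175). GLA, named after its values were seen, was up after TNF and IFNγ. The list as a whole had median log2 fold changes of -0.11, -0.30, 0.23 and 0.06 after TNF, IL-1β, IFNγ and OSM.

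Of 13 tested lysosomal membrane proteins and cholesterol carriers, SCARB2, the receptor that carries β-glucocerebrosidase, rose after IFNα (from 161 ± 5.21 to 449 ± 53.6 CPM, log2 fold change 1.48, SE 0.15, adjusted p 1.72e-10) and IFNγ (0.96, SE 0.15, adjusted p 6.38e-06). CD68, a macrophage-associated lysosomal glycoprotein, rose from 2.87 ± 3.32 to 59.1 ± 16.7 CPM after IFNα (4.23, SE 0.73, adjusted p 3.43e-05) and to 13.9 ± 5.10 CPM after IFNγ (2.15, SE 0.73, adjusted p 0.0474), in libraries with macrophage marker sums of at most 1.87 and 3.01 CPM. The CD68 baseline is close to the limit of detection, with an SD above its mean, so the size of these folds is loosely bound. NPC1, the lysosomal cholesterol exporter, rose after OSM (1.56, SE 0.37, adjusted p 0.00731). NPC2 and LAPTM4A, named after their values were seen, were called as well, NPC2 down after TNF and IL-1β and up after IFNγ, and LAPTM4A down after TNF. Calls numbered 2 of 13 after TNF, 1 after IL-1β, 2 after IFNα, 3 after IFNγ and 1 after OSM. The shares of all genes called were 11.5%, 7.38%, 9.85%, 10.6% and 3.96%.

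The vacuolar ATPase is the proton pump that acidifies the lysosome. Of its 15 tested subunits 3 rose after TNF (ATP6V0B, ATP6V0E1 and ATP6V1C1), 2 rose (ATP6V0E1 and ATP6V1G1) and 2 fell (ATP6V1D and ATP6AP2) after IFNα, 1 rose after IFNγ (ATP6V1B2) and 1 after TGF-β1 (ATP6V1G1, log2 fold change 0.87, SE 0.15, adjusted p 6.54e-05). ATP6V0B, ATP6V0E1, ATP6V1C1 and ATP6V1B2 are named after their values were seen. The shares of all genes called were 11.5%, 9.85%, 10.6% and 5.69% in these 4 comparisons. A single subunit of 15, as after IFNγ and TGF-β1, is near the background. After TNF 3 of 15 were called and after IFNα 4 of 15. Of 5 tested genes of mannose 6-phosphate sorting 1 was called after IL-1β, where 7.38% of all genes were. This was GNPTAB, the enzyme that starts the tag, which fell (-0.88, SE 0.27, adjusted p 0.0344). IGF2R and M6PR, the receptors, were called after 0 of the 10 cytokines by edgeR and DESeq2, each with 1 comparison at an unadjusted p under 0.05. Of the transcription factors TFEB, TFE3, TFEC and MITF, 2 were tested (TFE3 and MITF), and neither was called against unstimulated cells by edgeR or DESeq2 or had an unadjusted p under 0.05.

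The class II antigen processing partners of CTSS and CTSL were near 0 in unstimulated cells. All 5 tested (CD74, IFI30, HLA-DMA, HLA-DMB and HLA-DRA) rose after IFNγ by edgeR, where 5.52% of all genes rose, and DESeq2 called 3 of them. Genes near 0 elsewhere passed the filter on low counts through the interferon groups, so that this count and the p-values that follow are a description and no support for the list. CD74, the invariant chain, went from 0.534 ± 0.676 to 409 ± 204 CPM (adjusted p 2.59e-11), HLA-DRA from 0 counts in all unstimulated libraries to 200 ± 42.6 CPM (adjusted p 1.98e-08) and IFI30, a lysosomal thiol reductase, from 0 counts to 52.9 ± 11.4 CPM (adjusted p 1.26e-07). After IFNα, where CTSS and CTSL also rose, 1 of the 5 was called, IFI30 at 25.6 ± 6.62 CPM (adjusted p 1.64e-06), and CD74 stood at 1.74 ± 2.27 CPM and HLA-DRA at 0.623 ± 1.25 CPM. CD74 and HLA-DRA were higher after IFNγ than after IFNα in the direct comparison (adjusted p 2.55e-10 and 1.21e-07). Both passed the filter through the IFNγ libraries, so that this contrast is a description as well. After TNF and IL-1β, the other cytokines that raised CTSS, 0 of the 5 were called by edgeR or DESeq2. At an unadjusted p under 0.05 there were 3 and 1, beside 2236 and 1610 of all 9513 genes. Levels after TNF stayed close to the limit of detection, with CD74 at 2.68 ± 5.36, HLA-DRA at 0.804 ± 1.61 and IFI30 at 0.578 ± 0.762 CPM.

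**Figure D4:**
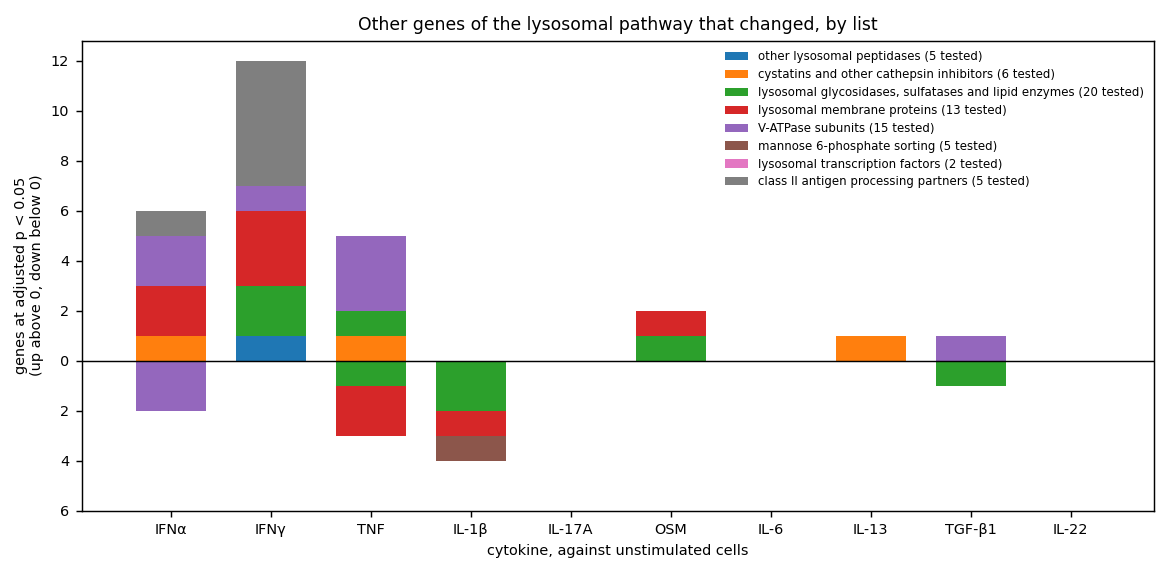
Number of other lysosomal pathway genes called at an adjusted p under 0.05 after each cytokine (horizontal axis), rises above and falls below the 0 line, coloured by list with the number of genes tested in each. IFNγ has the tallest column, with 12 rises among 71 genes tested, where 5.52% of all genes rose and 10.6% changed. Of these rises 5 are class II antigen processing partners, which passed the filter on low counts through the interferon groups. IL-1β has 4 falls and no rise, where 3.92% of all genes fell and 7.38% changed. IL-17A, IL-6 and IL-22 have no column.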

How the data were processed

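Bulk RNA-seq of 44 Ccd-18Co libraries was used, grouped by the cytokine in the sample titles. Per the labels and the study's methods, the authors checked reads with FastQC (0.11.9) and MultiQC (1.14) and quantified them with kallisto (0.48.0), and they deposited estimated counts per gene symbol, not scaled for depth, of which 5.77% are not whole numbers. The notes name hg38. The transcriptome release and the use of strand are not given in the sources used here.

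The expected counts were rounded and fitted in R (4.3.3) with edgeR (4.0.16): filterByExpr (9513 genes), TMM library sizes, glmQLFit and glmQLFTest with 1 coefficient per group over all 44 libraries, and Benjamini-Hochberg adjustment within each comparison. The adjusted p alone made the call, and calls were counted again with the study's added limit, an absolute log2 fold change above 1.5. CPM came from edgeR. Levels per kb use the MANE transcript length of GENCODE release 44 on GRCh38, which also gave gene positions. A count of 3 per library was taken as the floor, and intervals of count ratios are 95% exact and cover counting error only. Libraries of the same group were set against each other, with 0 of 66 pairs identical and none within sampling noise (at least 3.27 times the sampling variance).

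The 10 genes, the pathway and marker lists and the comparisons were chosen with earlier results of these data known. All 10 genes are named. Of each pathway list, up to 3 genes with the smallest adjusted p against unstimulated cells are named, and for each protease past both limits the 3 genes most like it in pattern (Pearson r over group means of log2 CPM with a prior count of 2, mean log2 CPM at least 1). A gene of the pathway lists is not reported here. The code was tested on simulated data. Alternatives tried were DESeq2 (1.42.0) size factors and Wald test, other filters, only the libraries compared, a replicate block, other fold limits and each library left out in turn.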

Additional observations from a re-analysis of the deposited data

Results flagged for a closer look

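In 88 sets of 4 libraries (8 genes in 11 groups), the highest or lowest library was tested for its distance from the other 3 by Dixon's criterion. It stood apart in 8, where chance gives about 1 in 20, or 4.4 of 88. That share is for normally distributed values and does not hold for sets with libraries at 0 counts, such as CTSS after IL-13 and TGF-β1. The values that follow are in CPM. For CTSS these were IL-13 replicate 3 at 11.0, with the others between 0 and 0.664, TGF-β1 replicate 4 at 6.60, with the others at 0, and IFNα replicate 4 at 69.1, with the others between 48.5 and 50.8. For CTSC they were IL-17A replicate 2 at 414, with the others between 369 and 373, and TGF-β1 replicate 3 at 280, with the others between 222 and 232. CTSB stood apart in unstimulated replicate 1 at 233, with the others between 152 and 160. CTSK was low in TNF replicate 2 at 249, with the others between 316 and 318. LGMN was high in OSM replicate 1 at 81.6, with the others between 39.1 and 44.0. The 8 values came from 8 different libraries.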

How the results depend on the processing

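Of the 28 calls (21 against unstimulated cells and 7 between paired cytokines), 21 held in every alternative fit at the same threshold and 7 were lost in some, the fold limits apart, which are counted below. In 392 such fits of these calls, 343 kept the direction and the call, 49 kept the direction without the call and 0 reversed. The 7 are CTSO after TNF and TGF-β1, CTSB after IL-1β and IFNγ, CTSC after TGF-β1, CTSK between TNF and IL-1β, and CTSC between IL-13 and TGF-β1. The only reversal was of an uncalled value, CTSS of IL-13 against TGF-β1, at -2.51 without IL-13 replicate 3, in a range up to 5.30 without TGF-β1 replicate 4.

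With an absolute log2 fold change above 1.5 added to the adjusted p, the number of proteases called was 1 after TNF, 1 after IL-1β, 3 after IFNγ, 1 after OSM, 0 after TGF-β1 and IL-13, 1 between IFNγ and IFNα, and 0 between the other 3 pairs. With a limit of 1 it was 1 after TNF, IL-1β and TGF-β1, and 0 after IL-13, between TNF and IL-1β and between IL-13 and TGF-β1. With all genes kept it was 1 after IL-1β and TGF-β1 and 0 for both of these pairs. With only the libraries compared it was 1 after IL-1β, 0 after TGF-β1 and 0 between IL-13 and TGF-β1. DESeq2's Wald test called 2 between TNF and IL-1β, where it called 177 of all genes. Named so far are only the counts that moved by more than 1.5-fold or to 0, and the others are left out. Shares of all genes were not counted under the limit of 1, with all genes kept or with only the libraries compared. Leaving out each library in turn, the counts ran from 4 to 5 after TNF, 1 to 3 after IL-1β, 3 to 4 after IFNα, 4 to 6 after IFNγ and 0 to 2 after TGF-β1, stayed at 1 after IL-13, 3 after OSM and 0 after IL-17A, IL-22 and IL-6, and ran from 0 to 1 between TNF and IL-1β and 0 to 3 between IL-13 and TGF-β1, with 2 between the interferons and 3 between OSM and IL-6 throughout. The causes of these moves were not tested beyond what each alternative changes.

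Libraries of the same replicate number did not deviate together, since in none of the 14 comparisons did all 4 pairs correlate above 0.1 (range -0.125 to 0.281), so the numbers were not taken as pairs. With the replicate block, CTSO after IFNα (0.85, adjusted p 0.0319) and CTSK after IFNγ (0.57, adjusted p 0.0494) were called as well.

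CTSD and CTSZ had too few counts to be tested, and the cause of their low counts was not tested. The size of the CTSS folds is limited by a baseline that rests on 12 counts. CTSA and LGMN are limited by the spread between libraries.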
